A study of Mus musculus with 36 samples.

Results

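The cytosolic ribosomal protein genes are the genes whose symbol is Rpl or Rps followed by a number, with any letter suffix, plus Rpsa, Rplp0, Rplp1 and Rplp2. Genes of the Rps6k kinases, Rps27l, Rps19bp1 and symbols containing -ps were left out. Rps19bp1 has the form of a member symbol but encodes a protein that binds Rps19. By this choice 86 of the 24411 genes in the deposited tables were members, 53 with Rpl or Rplp symbols and 33 with Rps or Rpsa symbols. Of these, 77 are the main gene of 1 protein each (46 of the large subunit and 31 of the small subunit), and 9 are paralogues or retrogenes (Rpl10l, Rpl22l1, Rpl36al, Rpl37rt, Rpl39l, Rpl3l, Rpl7l1, Rps27rt and Rps4l). Rpl10l was listed at 0 in every library, so 85 members passed the filter on low values and were tested.

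Ribosomal proteins assemble with ribosomal RNA into the small subunit, which reads the mRNA, and the large subunit, which joins amino acids. Their genes are among the most strongly transcribed of a growing cell, the proteins are made in matched amounts, and their mRNAs begin with a run of pyrimidines, the TOP motif, through which growth signals set their translation. Blood formation is sensitive to their dose: loss of a single copy of any of several of them causes Diamond-Blackfan anaemia in people. Taf1 is a subunit of TFIID, the general factor that binds core promoters and positions RNA polymerase II.

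The study measured RNA of haematopoietic stem and progenitor cells from mouse bone marrow, either control or Taf1 conditional knockout, as the cells differentiated in culture. The culture medium was IMDM with 20% horse serum and cytokines at 50 ng/ml. Day 0 cells were taken before the culture, day 3 cells had been in SCF and IL-3, and the culture was then split. The macrophage course received GM-CSF and M-CSF and then M-CSF alone, and the granulocyte course received SCF, IL-3 and G-CSF and then G-CSF alone, with cells taken on days 5 and 7 of each course. This gave 12 groups of 3 libraries, 36 in all: control and knockout at day 0, at day 3, and at days 5 and 7 of either course. How the deletion was induced, which cells carried it, which part of Taf1 was deleted, and the age, sex and strain of the mice were not given in the sources used here. The labels do not say whether the 3 libraries of a group came from separate mice, so a p-value here speaks only of the spread among these libraries, which may be technical.

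Values are TPM, a per-length share of each library's RNA. TPM keeps no depth, so the sequencing depth is unknown, and between 10289 and 11226 genes reached 1 TPM in each library. Taf1 mRNA was 14.1 ± 0.49 TPM (SD, n = 3) in control and 8.85 ± 0.303 TPM in knockout cells at day 0, and its log2 difference was -0.61 at day 0, -0.17 at day 3 (limma adjusted p = 0.0711), -0.99 at day 5 and -0.80 at day 7 of the macrophage course, and -0.85 and -0.47 in the granulocyte course. Since the deleted part is not known here, this does not check the labels fully. All 12 progenitor markers were at 1 TPM or more in the day 0 controls, and all 14 macrophage and all 14 neutrophil markers in the day 7 controls of both courses. The summed macrophage markers were 16738 to 18691 TPM in the macrophage-course controls and 20149 to 26133 TPM in the granulocyte-course controls, so the courses separated on that list against their labels. On the neutrophil markers they separated with their labels, at 37408 to 75473 TPM against 122792 to 172668 TPM. At day 5, control replicate 1 stood apart from replicates 2 and 3 in both courses, with neutrophil marker sums of 59676 and 64719 TPM against 158689 to 166155 TPM. At day 7, knockout replicate 1 stood apart in short structural RNA, with 9.49% of TPM against 4.43% and 4.96% in the macrophage course and 7.00% against 2.51% and 2.53% in the granulocyte course.

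The ribosomal protein genes took a smaller share of the RNA in knockout than in control cells at every stage. At day 0 the 3 control libraries had 23.1%, 24.3% and 22.4% of all TPM in the 86 members and the 3 knockout libraries 18.0%, 15.97% and 17.3%. The means were 23.3% ± 0.973 (SD, n = 3) and 17.1% ± 1.01. At day 3 the means were 17.3% ± 0.645 in controls and 13.0% ± 0.561 in knockouts. At no stage did a knockout library reach the lowest control library. In the macrophage course the means were 12.5% ± 2.24 and 8.59% ± 0.909 at day 5 and 12.2% ± 0.322 and 10.02% ± 0.134 at day 7. In the granulocyte course they were 13.0% ± 1.78 and 9.53% ± 0.534 at day 5 and 10.8% ± 0.0948 and 9.24% ± 0.602 at day 7. The control libraries of day 5 that stood apart had 15.03% in either course, and without them the difference of means was -2.58 percentage points (macrophages) and -2.42 (granulocytes), against -3.87 and -3.45 with them. In percentage points the gap was widest at day 0, -6.20, where the control share was highest. It was narrowest at day 7 of the granulocyte course, -1.53, where the control share was lowest. The median log2 difference of the members was instead lowest at day 5 of the macrophage course, -0.45 against -0.40 at day 0. Over all genes the medians there were -0.23 and 0.06. No test of the summed share is given, since the members were chosen with earlier results of these data known. In bulk RNA, fewer cells of a type and less RNA of a gene per cell cannot be told apart.

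**Figure D1:**
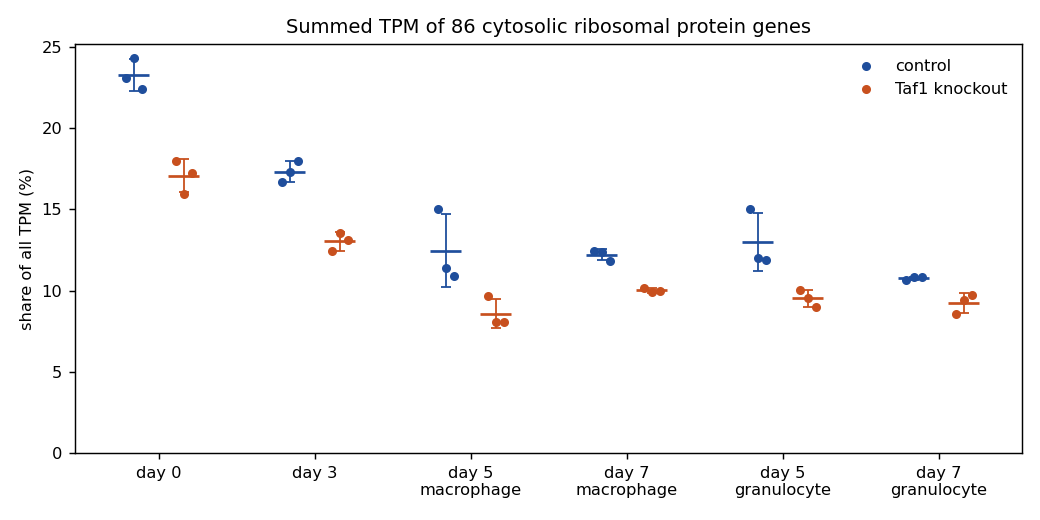
Share of all TPM (%, y axis) in the 86 ribosomal protein genes by stage (x axis), 1 point per library, control and knockout side by side, with the group mean ± SD as bars. Knockout libraries lie below control libraries at every stage, at 15.97% to 18.0% against 22.4% to 24.3% at day 0.

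Other RNA moved with genotype as well. The summed neutrophil markers were 12831 to 22322 TPM in control and 27797 to 47935 TPM in knockout cells at day 0, and 78958 to 94442 against 133905 to 147875 TPM at day 3. At day 5 the knockout libraries had 190429 to 249679 TPM of them in one course (macrophage) and 188486 to 232009 TPM in the other, above every control library. At day 7 the ranges overlapped in both courses, with 28826 to 43475 TPM in knockout macrophage-course libraries. TPM adds to a fixed total in each library, and the part of these genes in the ribosomal protein result was not tested. Leaving out short structural RNA, histone genes, S100a8 and S100a9 from every library's total gave shares of 32.1% against 24.9% at day 0 and 15.9% against 11.7% at day 7 of the macrophage course.

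Gene by gene, most members were lower in knockout cells at day 0 and few were higher. With limma on log2(TPM + 1) and Benjamini-Hochberg adjustment over all genes, 57 of 85 tested members fell at day 0 and 2 rose, against 10.2% of the 11953 genes tested that fell and 13.1% that rose. The members' median log2 difference was -0.40 and that of all genes 0.06. At day 3, 54 members fell and 4 rose, against 26.7% of genes that fell and 26.5% that rose, with medians of -0.33 and -0.01. The members' share of falls, 67.1% at day 0 and 63.5% at day 3, was above that of all genes at both.

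The same held later, with fewer falls at day 7. In the macrophage course 66 members fell and 1 rose at day 5, against 37.9% and 5.11% of genes, and 41 fell and 3 rose at day 7, against 12.5% and 27.4%. In the granulocyte course 58 fell and 1 rose at day 5, against 22.8% and 9.2% of the 11905 genes tested, and 32 fell and 3 rose at day 7, against 12.0% and 32.1%. The member medians in these 4 comparisons were -0.45, -0.27, -0.36 and -0.19, beside -0.23, 0.12, -0.09 and 0.17 over all genes. Without control replicate 1, 57 members fell at day 5 of the macrophage course and 46 at day 5 of the granulocyte course, and with only the compared groups in the fit 38 and 33. How many fell at the later stages depended on the scaling. With median-of-ratios size factors, which put the median of all genes between -0.10 and -0.00 at every stage, 67, 67, 41 and 65 members fell at days 0, 3, 5 and 7 of the macrophage course, and 54 and 66 at days 5 and 7 of the granulocyte course. The shares of all genes that fell were then 15.9%, 35.8%, 21.3% and 21.9%, and 22.6% and 23.2%. On this scale 2, 4, 2 and 1 members rose, against 9.73%, 23.5%, 17.0% and 18.2% of genes, and 1 and 2 in the granulocyte stages, against 17.6% and 21.9%.

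**Figure D2:**
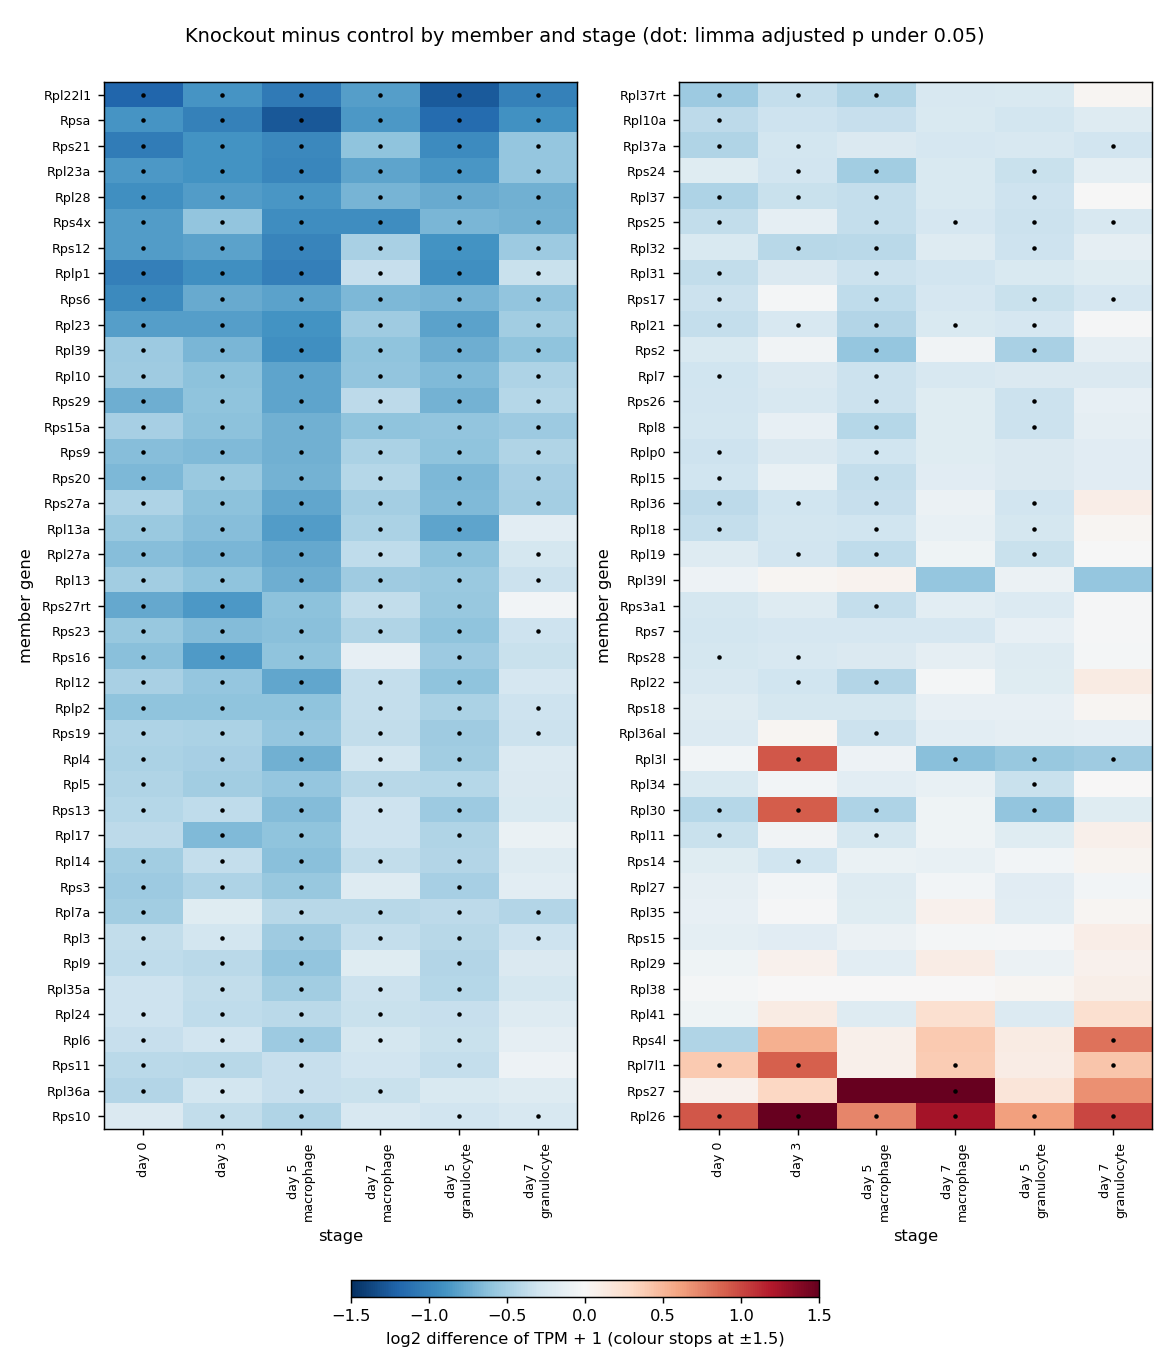
Log2 difference of knockout minus control (colour, TPM + 1) for 82 of the 85 tested members (rows, ordered by their mean difference) at the 6 stages (columns), with a dot where the limma adjusted p is under 0.05. The first rows, from Rpl22l1 and Rpsa, are lower at every stage, Rpl38 and Rpl41 have no dot, and the last, Rpl26, is higher at every stage but not when its copy Gm15772 is added.

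The members that were low were partly the same at each stage, and 72 fell in at least 1 comparison. In all, 26 members fell in all 6 comparisons, 12 of the large subunit (among them Rpl22l1, Rpl23a, Rpl28, Rplp1, Rpl23, Rpl39, Rpl10, Rpl27a, Rpl13, Rplp2 and Rpl3) and 14 of the small subunit (among them Rpsa, Rps21, Rps4x, Rps12, Rps6, Rps29, Rps15a, Rps9, Rps20, Rps27a, Rps23 and Rps19). Another 9 passed in none: Rpl39l, Rps7, Rps18, Rpl27, Rpl35, Rps15, Rpl29, Rpl38 and Rpl41. With median-of-ratios scaling 40 members fell in all 6 comparisons, and Rps7, Rps18 and Rpl27 passed at 1 stage or more. No share of all genes that fell in all 6 or passed in none is given here, so these counts only describe the members. A p that misses the threshold does not show that these 9 were equal in the genotypes. Across the 73 members with 1 gene per protein that were tested and are not Rpl26, Rpl30, Rpl34 or Rps27, the differences at 2 stages had a Pearson r of 0.78 (day 3 and day 7 granulocyte) to 0.98 (both courses at day 5). This is a description over genes, which are not independent and share their libraries within a stage. Rpsa and Rpl38 are both abundant, and their day 0 log2 differences were -0.88 (SE 0.10) and -0.03 (SE 0.12). They were picked as a large and a small difference, so their gap does not measure the spread among members.

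Rpsa, a protein of the small subunit's head that is also known as the laminin receptor precursor, had the largest fall of any member at day 5 of the macrophage course. At day 0 it was at 2693, 2773 and 2589.9 TPM in the controls and 1515, 1355 and 1509 TPM in the knockouts. At day 3 it was at 2123, 2129 and 2193 TPM against 1021, 1099 and 1059.6 TPM. At day 5 of the macrophage course it was at 1952, 1524 and 1463 TPM against 754, 639 and 638 TPM. All knockout libraries lay far below all control libraries at each of these stages, and the knockout values at day 0 were near those of controls at day 5. The log2 differences were -0.88 at day 0, -1.02 at day 3, -1.27 (SE 0.10, limma adjusted p = 1.36e-08) at day 5 and -0.87 at day 7 of the macrophage course, and -1.15 and -0.90 in the granulocyte course.

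Rps21, a small protein of the small subunit, was at 3265, 3429.6 and 3306 TPM in the day 0 controls and 1733, 1499 and 1595 TPM in the day 0 knockouts. At day 7 of the granulocyte course it was at 1548, 1516 and 1449 TPM against 895, 1048 and 1092 TPM. The genotypes did not overlap at either time, and they were closer at day 7. Its log2 difference was -1.05 (SE 0.10, limma adjusted p = 2.07e-07) at day 0, -0.90 at day 3, and -0.60 and -0.58 at day 7 of the macrophage and granulocyte courses.

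Rpl22l1, the paralogue of Rpl22 that can take its place in the large subunit, was at 461, 472 and 433 TPM in control and 228, 173 and 198 TPM in knockout cells at day 0. At day 3 it was at 263, 346 and 359.7 TPM against 152, 201 and 170.1 TPM. The knockout libraries lay below every control library at both stages. Its log2 difference was -1.19 (SE 0.12, limma adjusted p = 6.97e-07) at day 0, -0.88 at day 3, -1.06 and -0.83 at days 5 and 7 of the macrophage course and -1.26 and -1.01 in the granulocyte course, the largest fall of any member at day 0 and at both granulocyte stages. Rpl22 itself fell at day 3, by 0.30 on the log2 scale (not without control replicate 2 or 3 or knockout replicate 1, limma adjusted p = 0.0518 to 0.0913), and at day 5 of the macrophage course, by 0.44, and had -0.24 at day 0 (limma adjusted p = 0.0977) and 0.13 at day 7 of the granulocyte course (limma adjusted p = 0.342).

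The stalk of the large subunit, which recruits the elongation factors, is made of Rplp0 and pairs of Rplp1 and Rplp2. Rplp1 was at 4951, 5539 and 5156 TPM in the day 0 controls and 2449, 2574 and 2661 TPM in the day 0 knockouts. At day 7 of the macrophage course it was at 2779, 2802 and 2797 TPM against 2069, 2294 and 2245 TPM. The knockout libraries were lower at both times, and the gap at day 7 was the smaller one. The log2 difference of Rplp1 was -1.03 (limma adjusted p = 1.27e-06) at day 0, -0.91 at day 3, -1.03 and -0.34 at days 5 and 7 of the macrophage course and -0.92 and -0.33 in the granulocyte course. Rplp2 fell at all 6 stages by less, from -0.61 at day 3 to -0.31 at day 7 of the granulocyte course. The day 7 calls rested on single libraries: Rplp1 missed the threshold without knockout replicate 1 (limma adjusted p = 0.0588 and 0.0539 in the macrophage and granulocyte courses), and Rplp2 without control replicate 2 or knockout replicate 2 of either course, or control replicate 1 or knockout replicate 3 of the macrophage course (limma adjusted p = 0.0501 to 0.0854). Rplp0, the base of the stalk, was at 3726, 3935 and 3714 TPM in the day 0 controls and 3096, 3025 and 3021 TPM in the knockouts. Its log2 differences lay between -0.31 and -0.17. They passed at day 0 (limma adjusted p = 0.0438) and at day 5 of the macrophage course (-0.30, limma adjusted p = 0.0348). Neither call held without control replicate 1 (limma adjusted p = 0.0715 and 0.219), and at day 0 the call was also lost when any of the other 5 libraries of that day was left out, as was the macrophage call without knockout replicate 2 or 3 (limma adjusted p = 0.124 and 0.11).

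**Figure D3:**
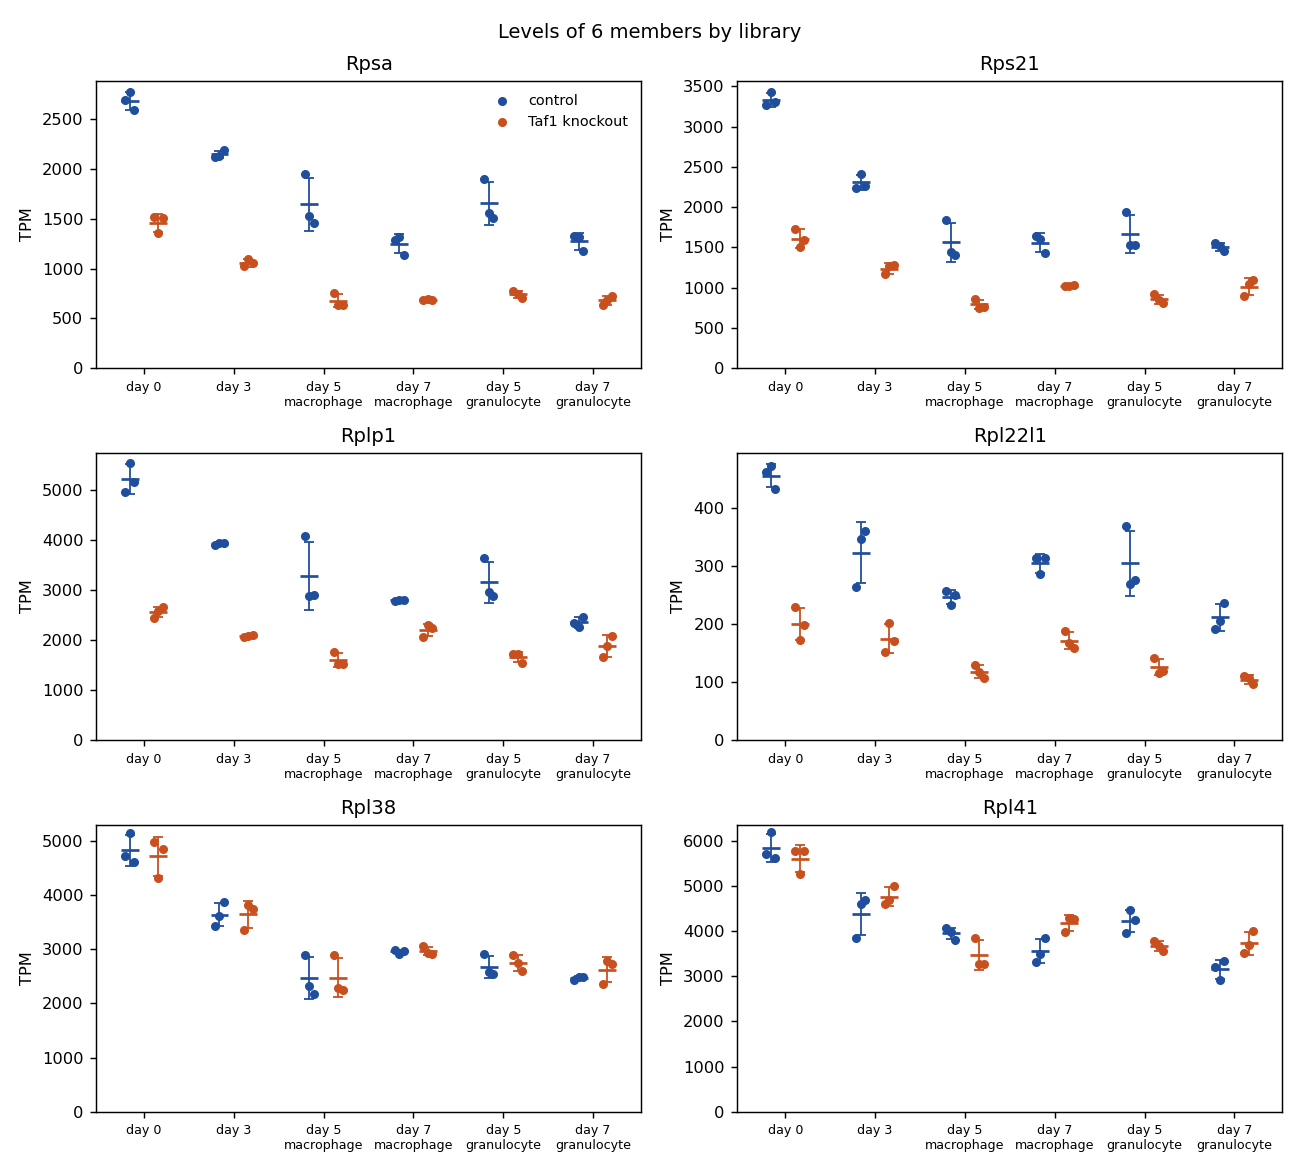
TPM (y axes) of Rpsa, Rps21, Rplp1, Rpl22l1, Rpl38 and Rpl41 by stage (x axes), 1 point per library, control and knockout side by side, with the group mean ± SD as bars. Knockout and control libraries separate for the first 4 genes, for example 1355 to 1515 against 2589.9 to 2773 TPM for Rpsa at day 0, and overlap at day 0 for Rpl38.

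Other members lower at each stage have roles across both subunits. Rps6, the protein that S6 kinases phosphorylate, fell by 0.95 on the log2 scale at day 0 (limma adjusted p = 4.13e-06) and by 0.59 at day 7 of the granulocyte course. Rps4x, encoded on the X chromosome, had 3656, 3808 and 3474 TPM in day 0 controls and 2209.5, 1885 and 2053 TPM in knockouts, with no overlap, and its log2 difference of -0.93 at day 7 of the macrophage course (limma adjusted p = 3.86e-06) was the largest fall there. Rpl28 fell by 0.72 at day 7 of the granulocyte course, and Rps12 by 0.99 and 0.89 at day 5 of the macrophage and granulocyte courses. These proteins lie in different parts of the ribosome.

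Around the exit of the peptide tunnel, where the growing chain leaves the large subunit and the signal recognition particle docks, members differed in size. Rpl26 as listed was higher, but its sum with its copy Gm15772, described below, was not. Rpl23a, the docking protein, was at 4289.7, 4471 and 4018 TPM in the day 0 controls and 2476, 2209.7 and 2330.2 TPM in the knockouts. It did not overlap between the genotypes, and its log2 difference was -0.86 at day 0, -0.89 at day 3 and -0.98 at day 5 of the macrophage course (limma adjusted p = 2.85e-07). Rpl39, a small protein of the tunnel wall, fell by 0.54 at day 0 and 0.92 at day 5 of the macrophage course. Of the 8 genes in this group, 4, 5, 6 and 3 fell at days 0, 3, 5 and 7 of the macrophage course, and 5 and 2 at days 5 and 7 of the granulocyte course. Over the whole family 67.1%, 63.5%, 77.6% and 48.2% fell at the first 4 of these stages and 68.2% and 37.6% at the last 2, against 10.2%, 26.7%, 37.9% and 12.5% and 22.8% and 12.0% of all genes, and nothing particular to the group is read from its counts. Rpl35 passed at none.

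Along the path of the mRNA and in the head of the small subunit, 5, 6, 6 and 3 of 9 genes fell at days 0, 3, 5 and 7 of the macrophage course, and 6 and 3 at days 5 and 7 of the granulocyte course, beside 67.1%, 63.5%, 77.6% and 48.2%, and 68.2% and 37.6%, of the family, and nothing particular to them is read from the counts. The shares of all genes that fell at these stages are those given with the peptide tunnel group. Rps3, at the mRNA entry, fell by 0.54 at day 0 and 0.46 at day 3. Rps2 had a log2 difference of -0.22 at day 0 (limma adjusted p = 0.083) and fell by 0.58 at day 5 of the macrophage course. Rps15, close to the site where tRNAs meet the mRNA, passed at none.

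Rpl5 and Rpl11 form a particle with the 5S ribosomal RNA, and bind Mdm2, the inhibitor of p53, when ribosome assembly fails. Rpl11 was at 3025, 3088 and 2862 TPM in the day 0 controls and 2478, 2238 and 2388 TPM in the knockouts, without overlap, and at day 3 at 1657, 1945 and 2019 TPM against 1703, 1863 and 1845 TPM, with overlap. Its log2 difference was -0.34 at day 0 (limma adjusted p = 0.00895) and -0.05 at day 3 (limma adjusted p = 0.647). Rpl5 fell by 0.45 at day 0, 0.52 at day 3, and 0.58 and 0.42 at days 5 and 7 of the macrophage course. In the granulocyte course it fell by 0.43 at day 5 and had -0.22 at day 7 (limma adjusted p = 0.151). The calls of Rpl5 were lost at day 0 without control or knockout replicate 2 (limma adjusted p = 0.0723 and 0.0783), at day 5 of the granulocyte course without control replicate 1 (-0.25, limma adjusted p = 0.0648), and at day 7 of the macrophage course without control replicate 1 or 2 or knockout replicate 2 (limma adjusted p = 0.0514 to 0.0591).

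Of 21 members known for Diamond-Blackfan anaemia or the 5q- syndrome, 11, 10, 14 and 6 fell at days 0, 3, 5 and 7 of the macrophage course, and 11 and 6 at days 5 and 7 of the granulocyte course, beside 67.1%, 63.5%, 77.6% and 48.2%, and 68.2% and 37.6%, of the family. These counts were not above the family's shares. The shares of all genes that fell at these stages are those given above with the peptide tunnel group. Rps19, the gene most often mutated in Diamond-Blackfan anaemia, was at 2884, 3119 and 2851 TPM in the day 0 controls and 2191, 2035 and 2202 TPM in the knockouts. It did not overlap between the genotypes and fell at all 6 stages, by 0.46 at day 0, 0.47 at day 3, 0.58 and 0.37 at days 5 and 7 of the macrophage course and 0.53 and 0.32 in the granulocyte course. The last missed the threshold without knockout replicate 1 (-0.25, limma adjusted p = 0.0517). Rps14, the gene of the 5q- syndrome, was at 3727, 4090.1 and 3763 TPM in the day 0 controls and 3632, 3144 and 3417 TPM in the knockouts. Each knockout library was below the controls, but the log2 difference of -0.19 did not pass (limma adjusted p = 0.289). Rps14 passed only at day 3 (-0.30, limma adjusted p = 0.0405), and that call was lost when any 1 of the 6 day 3 libraries was left out (limma adjusted p = 0.0503 to 0.121). Rps27a, which is made fused to ubiquitin, fell at all 6 stages, by 0.46 at day 0 and 0.78 at day 5 of the macrophage course.

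Rpl38, a protein known for the translation of Hox mRNAs in the embryo, was at 4707, 5142 and 4607 TPM in the day 0 controls and 4975, 4307 and 4842 TPM in the knockouts. At day 3 it was at 3429, 3612 and 3861 TPM against 3359.9, 3809 and 3747 TPM. The genotypes overlapped at both stages, and the log2 differences over the 6 stages ran from -0.03 to 0.08, with limma adjusted p of 0.512 or more. The median-of-ratios scaling did not bring Rpl38 past the threshold at any stage either, nor Rpl41, Rpl29, Rpl35, Rps15 or Rpl39l. Rpl41, the smallest ribosomal protein, had log2 differences of -0.20 to 0.24.

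When each member was instead measured against the median of all members in the same library, 8 were low at all 6 stages (among them Rpl22l1, Rpsa, Rps21, Rpl23a, Rpl28, Rps6 and Rpl23). The mean relative log2 difference was -0.62 for Rpl22l1 and -0.60 for Rpsa. On this scale 12 were high at all 6 stages, Rps26, Rps3a1, Rps28, Rpl36al, Rpl27, Rpl35, Rps15, Rpl29, Rpl38, Rpl41, Rpl7l1 and Rpl26, the last without its copy. None of these but Rpl7l1 and Rpl26 rose on the TPM scale, so most of these high values are relative to a family that was itself lower. Rps19 and Rpl5 passed at no stage on this scale.

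The promoters of members with large and small differences were read from RefSeq (GRCm38.p6), which held 65 of the 86 members. Each window runs from 50 bases before to 30 bases after the annotated start. Shown are 3 members that fell at all 6 stages (Rpsa, Rps21 and Rpl22l1) and Rpl38, which passed at none. Capitals mark CCGGAA or its reverse complement, the core of sites bound by ETS factors, and TATAAA on either strand, the TATA box that TFIID can bind.
Rpsa: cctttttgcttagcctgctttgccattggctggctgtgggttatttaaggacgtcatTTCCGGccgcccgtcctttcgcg
Rps21: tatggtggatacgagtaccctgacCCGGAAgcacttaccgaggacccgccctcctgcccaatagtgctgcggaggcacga
Rpl22l1: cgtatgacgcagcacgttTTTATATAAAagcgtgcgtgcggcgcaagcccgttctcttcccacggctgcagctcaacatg
Rpl38: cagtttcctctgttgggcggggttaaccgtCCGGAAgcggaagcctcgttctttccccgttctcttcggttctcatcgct
On the plus strand of mm10 the windows are chr9:120127716-120127795 for Rpsa, chr2:180257329-180257408 for Rps21, chr3:28805458-28805537 for Rpl22l1 and chr11:114668530-114668609 for Rpl38. CCGGAA was in the windows of 19 of the 65 members (29.2%) and in 7.65% of all 27025 windows of the table, and TATAAA in 4 members (6.15%) and 4.61% of all windows. A run of at least 8 C or T on the gene's strand was in 34 members (52.3%) and in 30.2% of all windows, and CACGTG, the E-box that Myc and Max bind, in 2 members (3.08%) and 2.63%. The median of the members' mean log2 difference over the 6 stages was -0.21 with and -0.40 without CCGGAA, and -0.28 with and -0.31 without TATAAA. Both low and steady members thus hold CCGGAA, and a match is only a description of the letters.

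Rpl26 is the member whose listed values went most against the rest, and it has a near-identical copy. Rpl26, on chromosome 11 at 68901583 to 68906989 of mm10, is the gene with introns. Gm15772, a processed pseudogene without introns, lies on chromosome 5 at 3236431 to 3236868. In GENCODE M21 their coding sequences differ at 2 of 435 bases (99.5% identity). Rpl30, on chromosome 15 at 34440505 to 34443640, and the processed pseudogene Gm12191, on chromosome 11 at 49678710 to 49679057, differ at 1 of 345 bases (99.7% identity). A 75-base coding window of the first pair is shown, from coding base 140, because a read from such a window is placed on the gene or its copy by a single base. The capital marks that base.
Rpl26: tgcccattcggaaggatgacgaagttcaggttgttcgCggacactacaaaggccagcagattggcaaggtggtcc
Gm15772: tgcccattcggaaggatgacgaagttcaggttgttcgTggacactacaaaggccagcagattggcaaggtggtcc

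As listed, Rpl26 was higher in knockout cells throughout. It was at 266, 350.4 and 266 TPM in the day 0 controls and 658, 476 and 558 TPM in the knockouts, and at day 3 at 80.1, 135 and 149 TPM against 485, 623 and 477 TPM. No control library reached a knockout library at either stage. The log2 differences of the listed Rpl26 were 0.94 at day 0, 2.15 at day 3 (limma adjusted p = 3.52e-08), 0.74 and 1.25 at days 5 and 7 of the macrophage course and 0.61 and 1.002 in the granulocyte course, where the day 5 call was lost without control replicate 1 or knockout replicate 1 or 2 (limma adjusted p = 0.052 to 0.0627). Its copy was listed far higher and went the other way. Gm15772 was at 4044, 4340.3 and 4015 TPM in the day 0 controls and 3651, 3238 and 3397 TPM in the knockouts, and at day 3 at 3499.7, 3537 and 3797 TPM against 2422, 2607 and 2647 TPM. The log2 difference of Gm15772 was -0.27 at day 0 (limma adjusted p = 0.178) and -0.50 at day 3, and it fell at 4 of the 6 stages. The sum of Rpl26 and Gm15772 passed at none, with log2 differences of -0.15 at day 0 (limma adjusted p = 0.43), -0.27 at day 3 (limma adjusted p = 0.0773), -0.25 and -0.12 at days 5 and 7 of the macrophage course and -0.19 and -0.0535 in the granulocyte course. How the estimated reads were divided between the gene and its copy was not tested, and gene and copy cannot be told apart in these tables with certainty.

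**Figure D4:**
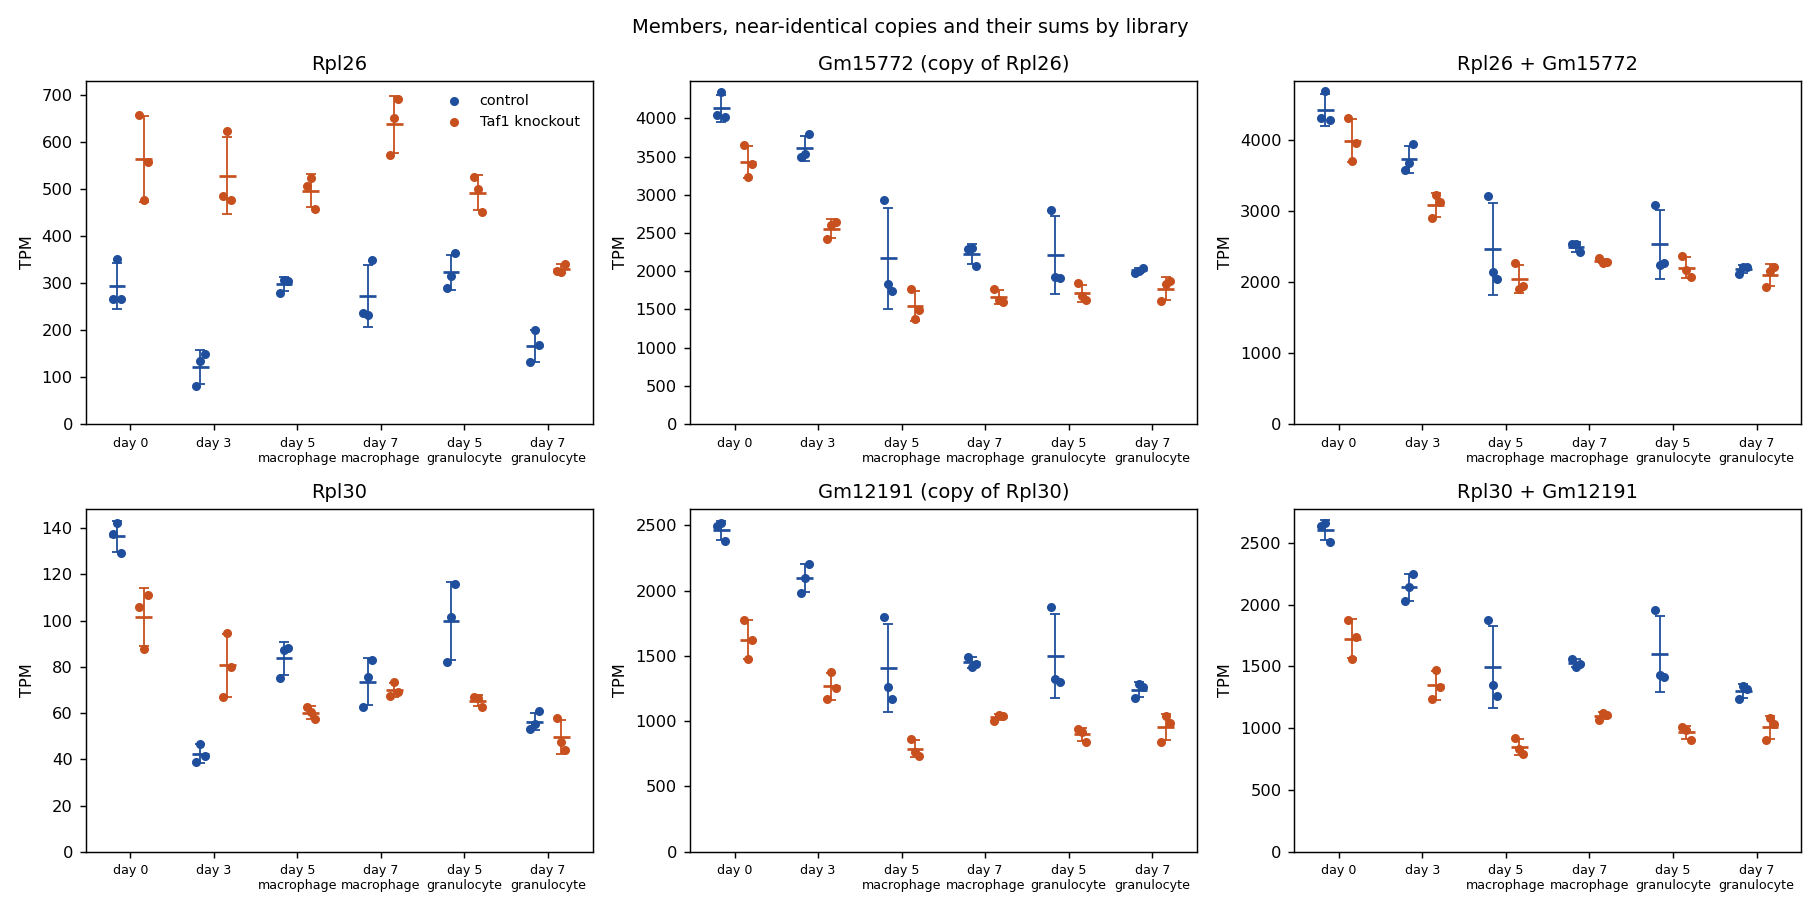
TPM (y axes) by stage (x axes) of Rpl26, its near-identical copy Gm15772 and their sum (upper panels), and of Rpl30, its copy Gm12191 and their sum (lower panels), 1 point per library, with the group mean ± SD as bars. Rpl26 alone is higher in knockout cells at every stage while its sum with Gm15772 is not (log2 -0.27 at day 3), and Rpl30 alone is higher at day 3 while its sum with Gm12191 is lower (log2 -0.67).

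Rpl30 passed in both directions as listed, -0.43 at day 0 and 0.90 at day 3 (limma adjusted p = 3.35e-06), but its sum with Gm12191 fell at all 6 stages. At day 3 Rpl30 was at 38.7, 46.8 and 41.6 TPM in controls and 67.2, 94.5 and 80.2 TPM in knockouts, and Gm12191 at 1986, 2099 and 2207 TPM against 1170.1, 1376 and 1253 TPM. The copy carried nearly all of the sum, whose log2 difference was -0.60 at day 0, -0.67 at day 3, -0.79 and -0.47 at days 5 and 7 of the macrophage course and -0.71 and -0.37 in the granulocyte course. Rps27 and its retrogene Rps27rt, on chromosome 9 at 114982366 to 114982739, share all 252 coding bases. Rps27 was listed at 3.19 to 44.9 TPM and Rps27rt at 1516 to 5463 TPM over the 36 libraries. At day 7 of the macrophage course Rps27 alone was at 3.41, 4.19 and 3.19 TPM in controls and 30, 30.8 and 5.92 TPM in knockouts and passed as higher (2.05, limma adjusted p = 0.0313), but the sum with Rps27rt was lower (-0.36, limma adjusted p = 0.0285). The call for Rps27 alone was also lost without knockout replicate 1 or 2, which hold the high values (limma adjusted p = 0.105 and 0.129). When 10 members were summed with their 11 near-identical copies, 83 members were tested, of which 56, 56, 66 and 42 fell at days 0, 3, 5 and 7 of the macrophage course and 57 and 33 at days 5 and 7 of the granulocyte course, close to the counts above. With the copies the share of TPM at day 0 was 24.2% in controls and 17.8% in knockouts.

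Among the other paralogues, Rpl7l1, a paralogue of Rpl7 that takes part in ribosome assembly, was the only member to pass as higher at 4 stages without a copy among the summed ones. It was at 43.7, 53.6 and 60.3 TPM in the day 3 controls and 88.8, 104 and 101 TPM in the knockouts, without overlap. Its log2 difference was 0.40 at day 0, 0.89 at day 3 (limma adjusted p = 2.43e-06), 0.38 at day 7 of the macrophage course and 0.41 at day 7 of the granulocyte course, and 0.07 and 0.11 at day 5 of the 2 courses (limma adjusted p = 0.637 and 0.529). Its call was lost at day 0 without control replicate 3 or knockout replicate 1, and at day 7 without control replicate 1 of either course or control replicate 2 of the macrophage course (limma adjusted p = 0.0538 to 0.0934). Rpl3l, the paralogue of Rpl3 known from muscle, stayed at 0.04 to 3.81 TPM. It passed the filter on low values only through the later groups, and its log2 differences, 0.93 at day 3, -0.57 at day 5 of the granulocyte course and -0.62 and -0.54 at day 7, are values near the floor from which no direction is read. Rps4l was at 1.67 to 21.6 TPM and rose only at day 7 of the granulocyte course (0.81, limma adjusted p = 0.00242). Rpl36al fell only at day 5 of the macrophage course (-0.33), Rps27rt fell at 5 stages with -0.04 at day 7 of the granulocyte course (limma adjusted p = 0.793), Rpl37rt fell at 3 stages (-0.55, -0.36 and -0.45 at days 0, 3 and 5 of the macrophage course), and Rpl39l, at no more than 1.92 TPM, passed at none.

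During differentiation the family lost share in either genotype. From day 0 to day 3, 69 of 85 members fell and 1 rose in controls, against 39.6% of genes that fell and 33.3% that rose, with a member median of -0.44. In knockouts 70 fell and 1 rose, against 35.9% and 22.8%, with a median of -0.38. With median-of-ratios scaling 37 members fell in knockouts. The share of all genes that fell on that scale is not given here, so this count is not set against a background. From day 0 to day 7, 82 fell and 1 rose in the control macrophage course, against 39.8% and 33.6% of genes, and 83 fell and 1 rose in the control granulocyte course, against 47.3% and 28.6%. In knockouts 79 fell and 1 rose in the macrophage course, against 36.4% and 35.2%, and 81 fell and 1 rose in the granulocyte course, against 42.4% and 31.3%. The member medians at day 7 were -0.93 and -1.14 in controls and -0.78 and -0.92 in knockouts, in the macrophage and granulocyte courses.

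**Figure D5:**
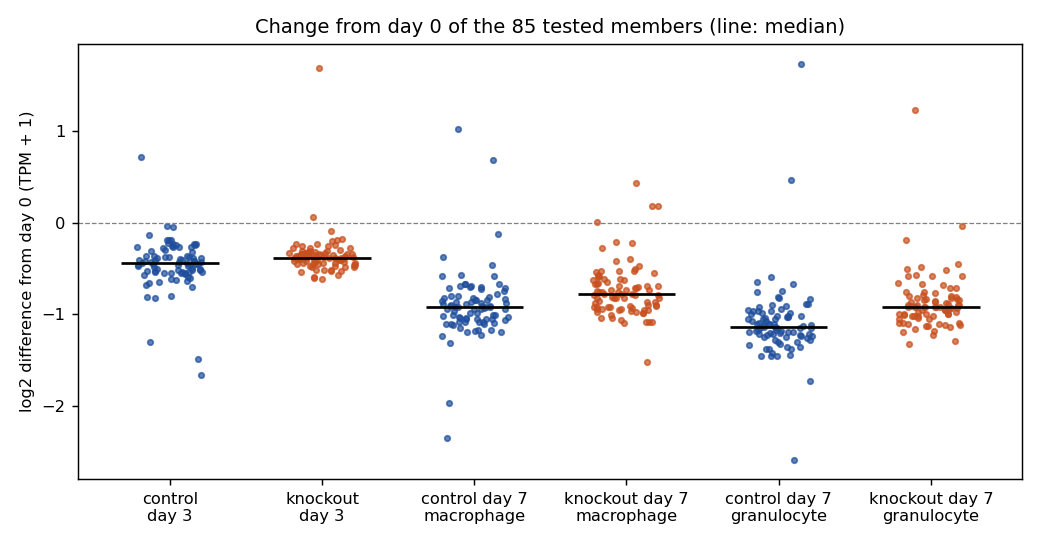
Log2 difference from day 0 (y axis, TPM + 1) of each of the 85 tested members in controls and knockouts at day 3 and at day 7 of either course (x axis), 1 point per member, with the median as a line. The medians run from -0.38 in knockouts at day 3 to -1.14 in controls at day 7 of the granulocyte course.

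The single member counted as higher over time was Rpl3l in all 6 comparisons, at a mean of 0.14 TPM in day 0 controls and 2.81 TPM at day 7 of the control granulocyte course. It entered the test only through the later groups in which it is higher, so this count is no support for a rise. Rps4l had the largest fall in each of the 4 day 7 comparisons, from 21.6, 17.8 and 14.7 TPM in the day 0 controls to 2.46, 2.3 and 1.67 TPM at day 7 of the control granulocyte course, and its log2 difference was -2.59 there (SE 0.20, limma adjusted p = 1.59e-10). All 3 later libraries were far below all 3 earlier ones. Rps12, which lies in the small subunit's beak, fell by 1.32 in the control macrophage course, and Rpl12, at the base of the stalk, by 1.46 in the control granulocyte course. In knockouts Rpl13a fell by 1.10 and Rpsa by 1.09 in the macrophage course, and Rpl3, a core protein near the peptidyl transferase centre, by 1.29 in the granulocyte course. As listed, Rpl30 fell by 1.67 and Rpl26 by 1.31 from day 0 to day 3 in controls, both of which have the copies described above. Rps27 fell by 1.98 and 1.73 in the control courses, which rested on control replicate 3 of day 0: without it the log2 differences were -1.30 (limma adjusted p = 0.138) and -1.06 (limma adjusted p = 0.0527).

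Whether the knockout difference itself changed with time was tested as an interaction. Between day 0 and day 3, 6 members passed in the direction of a smaller loss or a larger gain and 0 in the other, against 15.0% and 17.3% of all genes. The members' count was thus below the background in each direction. Of the 6, Rpl26 and Rpl30 turned sign when summed with their copies (1.21 and 1.33 as listed, -0.12 and -0.0746 summed). By limma, 7 members had an unadjusted p under 0.05. Between day 0 and day 7 of the macrophage course 2 passed, Rplp1 with 0.68 and Rps21 with 0.45, and 0 in the other direction, against 7.04% and 4.75% of genes, and 11 members had an unadjusted p under 0.05. In the granulocyte course 10 passed with a higher difference at day 7 and 1 (Rpl3l) with a lower one, against 12.4% and 6.77% of genes, so neither count was above the background. Rplp1 and Rps21 passed in both courses. In the granulocyte course their interactions were 0.69 (SE 0.14, limma adjusted p = 0.00166) and 0.48 (SE 0.14, limma adjusted p = 0.0218). The call for Rps21 in the macrophage course was lost in 9 of the 12 settings that left out 1 library.

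Between the courses at day 7, the number of members that passed depended on the fit. In controls 13 were higher in the macrophage than in the granulocyte course and 1 was lower, against 34.0% and 9.81% of the 11553 genes tested. In knockouts 8 were higher and 1 lower, against 35.3% and 14.9%. The counts moved with the scaling: with median-of-ratios factors 2 were higher and 2 lower in controls, and 2 higher and 3 lower in knockouts. A block by replicate number treated libraries of equal number as pairs between the courses at day 7. With it 21 members were higher in the macrophage course in controls, and with only the compared groups in the fit 33. Without macrophage-course replicate 3 the control count was 4, without granulocyte-course replicate 1 it was 5, without macrophage-course replicate 2 it was 7 and without granulocyte-course replicate 2 it was 6. Rpl22l1 was at 314, 285 and 314 TPM in the control macrophage course and 192, 206 and 237 TPM in the granulocyte course, without overlap, a log2 difference of 0.53 in controls (limma adjusted p = 0.0014) and 0.71 in knockouts (limma adjusted p = 6.51e-05). Rpl26 alone was higher by 0.70 and 0.94, but its sum with Gm15772 was not (0.19 and 0.13). Rpl3l, near the floor, had -0.71 and -0.80. The knockout difference did not pass as different between the courses for any member by limma (0 of 85, against 1.84% and 2.45% of genes), and 0 members had an unadjusted p under 0.05.

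Ribosomal proteins whose symbols fall outside the choice were also lower at days 0 and 3. Fau, a ubiquitin-like protein fused to a small subunit protein, fell by 0.41 at day 0 and 0.58 at day 3. Gnb2l1, which encodes the scaffold Rack1 on the small subunit, fell by 0.42 and 0.47. Of 18 other genes with TOP mRNAs, mostly translation factors, 8 fell and 0 rose at day 0, against 10.2% and 13.1% of all genes, and 9 fell and 2 rose at day 3, against 26.7% and 26.5%. They include Eif4b (-0.55 at day 0 and -0.38 at day 3), which helps unwind mRNA, the elongation factor subunits Eef1g (-0.53), Eef1b2 (-0.60) and Eef2 (-0.50) at day 0, and Eif3f (-0.61) and Tpt1 (-0.80) at day 3. Eef1d fell at day 0 (-0.37, limma adjusted p = 0.0132) and rose at day 3 (0.52).

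Of 27 genes that act on ribosomal protein genes or their mRNAs, 1 rose and 2 fell at day 0, against 13.1% and 10.2% of all genes, and 9 rose and 3 fell at day 3, against 26.5% and 26.7%. These counts are near or below the background, and nothing is read from them. Larp7, a binding protein of 7SK RNA, fell by 1.01 at day 0, Akt1s1, an inhibitor of mTOR complex 1, fell by 0.46, and Rps6kb1, the kinase of Rps6, rose by 0.38 at day 0 and 0.67 at day 3. At day 3 Myc rose by 0.65, its partner Max by 0.52 and Tia1, which binds TOP mRNAs under stress, by 0.74. Of 11 tested genes that carry ribosomal proteins to assembly or report its failure to p53, 2 rose and 2 fell at day 0, against 13.1% and 10.2% of all genes, which is near the background at this size, and 7 rose and 1 fell at day 3, against 26.5% and 26.7%. Cdkn1a, a target of p53 that stops the cell cycle, rose by 1.95 at day 0, and Brix1 rose by 0.38 while Ipo7, an importer of ribosomal proteins, fell by 0.49 and Bccip by 0.37. At day 3 Grwd1 rose by 1.37, Heatr3, which carries Rpl5, by 1.28, Trp53 by 0.77 and Brix1 by 0.74. Cdkn1a is not among the genes named at day 3, and the 1 gene that fell there is not named either. A lasting p53 response is therefore not read from these genes, and the activity of p53 was not tested. The named genes of both lists were chosen by their p at day 0 or day 3, and the lists were made with earlier results of these data known.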

How the data were processed

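Total RNA was sequenced after library preparation with a stranded KAPA kit, per the labels' protocols. The authors deposited 2 tables of TPM, 1 per course, with 24411 genes each, per the file headers. The 12 day 0 and day 3 columns were equal in both and were used once. The submitters' processing notes name RSEM, DESeq2 1.38.3 and mm10. Aligner, annotation and RSEM settings were not given in the sources used here. RSEM divides reads that match several genes by estimate, so values of near-identical genes are uncertain.

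From the deposited TPM, log2(TPM + 1) was fitted with limma 3.58.1 in R 4.3.3, per course over 24 libraries, keeping genes that reached 1 TPM in 3 or more libraries (11953 for macrophages and 11905 for granulocytes). The courses were compared at day 7 over 11553 genes. P-values were adjusted by Benjamini-Hochberg over all genes, with a threshold of 0.05. On simulated data for the day 0 knockout comparison of 11953 genes, 94% of genes changed by log2 1 and 48% of genes changed by 0.5 were recovered. False calls in the simulation were 5.96% there. Over the knockout comparisons they ran from 4.32% at day 7 to 9.52% at day 5, both of the macrophage course. Correlations between replicates were 0.989 or more.

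Some members and sequences are counted above but not reported by name here. The members and lists were chosen with earlier results of these data known. Members named in the text are a fixed set (Rpl26, Rpsa, Rplp0, Rplp1, Rplp2, Rps21, Rpl5, Rpl11, Rps14, Rps19, Rps27a, Rpl39, Rpl22 and paralogues), the 3 largest rises and 5 largest falls per knockout comparison and the 3 largest per other comparison among passing members with a mean of at least 5 TPM, and those passing in all 6 or in both directions. Of each other list, up to 4 passing genes with the smallest p at day 0 and at day 3 are named. Also listed by name are members passing in none, those high at all 6 stages against the member median, and those passing an interaction test. Rpl38, Rpl41, Rps2, Rps3 and copies were chosen for description after their values were seen. Copies are genes with at least 25% of their 50-base words in a member's transcript (GENCODE M21). Alternatives tried were the pseudocount, the filter, the scaling, a replicate block, leaving out each library, and summing copies.

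The rule for pairing by replicate number was that every equal-number correlation be over 0.1. Control and knockout at day 5 of the macrophage course met it (0.300, 0.182 and 0.267), as did the courses at day 7 (0.231 or more). Libraries of unequal number reached 0.135 in the first case. Between the courses at day 7 they reached 0.43 in controls and 0.348 in knockouts, above the lowest equal-number values. The numbers thus do not single out pairs between the courses, and the rule gives only a hint from the data. At the other stages the lowest was -0.288 to 0.0621.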

Additional observations from a re-analysis of the deposited data

Results flagged for a closer look

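The knockout difference (log2, knockout minus control) differed between days for some members by the limma interaction test at an adjusted p under 0.05. From day 0 to day 3 it moved up by 0.34 for Rpl7a, 0.50 for Rpl7l1, 0.97 for Rpl3l, 0.98 for Rps4l, 1.21 for Rpl26 and 1.33 for Rpl30. The last 2 became -0.12 for Rpl26 and -0.0746 for Rpl30 when each was summed with its near-identical copy. The call for Rps4l was lost in 8 of the 12 settings that left out 1 library. Rpl3l passed the filter on low values only through the groups in which it is higher, so no direction is read from it. Rpl3l and Rps4l were at low levels, at no more than 2.82 and 21.6 TPM on those days.

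From day 0 to day 7 of the macrophage course it moved up by 0.45 for Rps21 and 0.68 for Rplp1. From day 0 to day 7 of the granulocyte course it moved up by 0.37 for Rpl27a, 0.39 for Rpl18, 0.41 for Rpl11, 0.46 for Rpl37, 0.48 for Rps21, 0.50 for Rpl36, 0.58 for Rpl37rt, 0.69 for Rplp1, 0.73 for Rps27rt and 1.26 for Rps4l, and by -0.50 for Rpl3l. Rpl37rt and Rps27rt share most of their sequence with Rpl37 and Rps27. The knockout libraries of day 7 also differed among themselves in short structural RNA, and the part of this was not tested: without knockout replicate 1 of the granulocyte course, 18 members passed in place of 10.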

How the results depend on the processing

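The counts below are of members that fell in knockouts, or over time, and of members that were higher in interactions and between courses. Measured against the median of all members, the knockout counts were 17 at day 0, 25 at day 3, 23 and 15 at days 5 and 7 of the macrophage course and 19 and 19 of the granulocyte course. The counts over time were then 14 and 3 at day 3 in controls and knockouts, 14 and 9 at day 7 of the macrophage course and 15 and 13 of the granulocyte course. With median-of-ratios scaling the knockout counts were 41 at day 5 and 65 at day 7 of the macrophage course and 66 at day 7 of the granulocyte course, the knockout count from day 0 to day 3 was 37, the interaction at day 7 of the macrophage course 1, and the courses differed in 2 members in controls and 2 in knockouts. Without short structural RNA, histone, S100a8 and S100a9 genes, 68 and 56 members fell at day 7 of the macrophage and granulocyte courses, the interactions there had 1 and 6 members, the courses differed in 5 members in controls and 4 in knockouts, and the difference in summed TPM was -4.24 and -2.94 points against -2.20 and -1.53. Relative to the member median, the courses differed in 1 and 5 members. With only the groups compared in the fit, 38 and 33 members fell at day 5 of the macrophage and granulocyte courses, and 33 were higher in the macrophage course in controls. On simulated data for the day 0 knockout comparison, 48% of changes of log2 0.5 were recovered at this size.

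Leaving out 1 library gave 42 to 54 falls at day 0, 42 to 54 at day 3, 56 to 70 and 29 to 39 at days 5 and 7 of the macrophage course and 45 to 62 and 24 to 29 of the granulocyte course. Over time it gave 65 to 69 in controls and 55 to 76 in knockouts at day 3, 81 to 82 and 82 to 83 in control and 78 to 80 and 81 to 82 in knockout courses at day 7. Interactions ranged from 3 to 6 at day 3, from 1 to 2 in the macrophage and from 4 to 18 in the granulocyte course, and courses differed in 4 to 12 members in controls, 6 to 9 in knockouts and 0 to 0 for the knockout difference. The summed TPM differed by -6.65 to -5.65 points at day 0, -4.59 to -3.94 at day 3, -4.63 to -2.58 and -2.38 to -2.08 at days 5 and 7 of the macrophage course and -3.98 to -2.42 and -1.77 to -1.19 of the granulocyte course. The day 3 interaction had 3 members without control replicate 2 of day 0, knockout replicate 2 of day 0 or knockout replicate 3 of day 3, and the granulocyte interaction 4 without control or knockout replicate 2 of day 0 or knockout replicate 3 of day 7.

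With the replicate number as a block, 57, 55, 67 and 41 members fell at days 0, 3, 5 and 7 of the macrophage course and 56 and 31 of the granulocyte course. Pairing the courses at day 7 by the block, in one fit or within genotype, gave 21 members in controls. The block changed no other count by over 1.5 times.

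Summing members with near-identical copies and the block within genotype were chosen after seeing the data. Summing turned the sign of Rpl26 at days 0, 3, 5 and 7 of the macrophage course (-0.15, -0.27, -0.25 and -0.12), at days 5 and 7 of the granulocyte course (-0.19 and -0.0535) and in the day 3 interaction (-0.12), of Rpl30 at day 3 (-0.67) and in the day 3 interaction (-0.0746), and of Rps27 at day 7 of the macrophage course (-0.36). Of 116 passing results of named members, 77 kept their direction and side of the threshold in every alternative run. Depth is unknown, so no limit from counting can be given.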
